A study of Mus musculus with 46 samples.

Results

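The 42 genes described here encode proteins that build the mitotic spindle, attach and separate chromosomes and cut the dividing cell apart. They were taken as a fixed list of gene names, with no threshold on a measured value. All 42 were found among the 46011 complete entries of the count table, and all 42 passed the filter on low counts in every comparison, with between 198 counts (Knl1) and 20663 counts (Mki67) in a single tumor. The samples were 46 subcutaneous tumors of AB1-HA, a mouse mesothelioma line that carries influenza haemagglutinin, grown on both sides of male BALB/c mice aged 8 to 10 weeks. A single tumor was removed from each mouse for RNA sequencing, and the tumor left in place showed whether that mouse responded to cyclophosphamide (CY), an alkylating drug given at 200 mg/kg. Tumors of complete responders (CR) and of progressors (PR, named partial responders in the series title) were taken at day -1 (13 CR and 13 PR), day 3 (5 CR and 5 PR) and day 7 (5 CR and 5 PR) counted from CY, which were days 9, 13 and 17 from inoculation. The day -1 tumors had received no drug, and all 20 later tumors had.

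Counts per tumor, summed over the entries used here (symbols up to Pax7 in the alphabet, so less than the whole library), ran from 1.02e7 to 1.42e7 at day -1, from 1.54e7 to 1.87e7 at day 3 and from 1.60e7 to 1.94e7 at day 7. Depth and tumor age therefore change together with time after CY, no untreated tumors of day 13 or 17 were among the samples, and these cannot be told apart from the drug. Of 1035 pairs of libraries, 0 held identical counts. Of 7 mesothelial markers, Msln was plentiful (median 374 CPM at day -1, 59.2 at day 7), Muc16 was at 0 counts in 42 tumors, and Krt18 and Krt19 were below 1 CPM, so the mesothelial label rests mainly on Msln. These are whole-tumor RNA levels, in which fewer dividing cells and less RNA per dividing cell cannot be told apart. CPM is the count of a gene scaled to a common library size by the TMM method, and a gene is said to have risen or fallen where edgeR's quasi-likelihood test gave a false discovery rate (FDR, Benjamini-Hochberg over all genes tested) under 0.1.

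As background, mitosis is driven by the kinase Cdk1 with cyclin B, which condenses chromosomes and starts spindle assembly. The spindle checkpoint holds the cell until each kinetochore is attached, after which the anaphase-promoting complex with its activator Cdc20 has cyclin B destroyed. Many of these genes are transcribed late in the cell cycle through promoters with CHR elements (cell cycle genes homology region), bound by the MuvB complex, often near CCAAT boxes bound by NF-Y. In proliferating tumors their RNA is widely used as a measure of the share of cycling cells.

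Promoters from RefSeq (GRCm38.p6, 250 bases before to 50 after the start of the gene, 1 window per symbol) were found for 38 of the 42 genes, and not for Ccna2, Aurkb, Kif20a and Dlgap5. A CHR motif (TTTGAA or TTCGAA on either strand) was present in 28 of 38 windows (73.7%), against 19.4% of all 27025 windows and 15.6% of the 8211 windows of genes tested over time. At least 1 CCAAT on either strand was present in 65.8% of the 38 windows and in 37.9% of all windows, and 2 or more in 47.4% and 12.2%. At least 1 CCAAT was also present in 74.5% of 47 windows of other mitosis genes, so it was not particular to the 42 genes. A match counts letters only, overlapping matches were kept, and binding was not measured. Windows of 3 genes with the smallest p among those that rose at day 3 (Ccnb2, Cdk1 and Cdc20) and of 3 genes that had fallen by day 3 (Mki67, Ect2 and Anln) are shown, because the genes parted at that day. The 3 fallen genes were not picked by p. Ncapg2 had a smaller p at day 3 than Mki67 and Anln, and its window, not shown, held 1 CHR motif and 0 CCAAT. CHR and CCAAT matches, on either strand, are in capitals, and each sequence runs 5′ to 3′ on the strand of the gene.
Ccnb2 (chr9:70421505-70421804, minus strand): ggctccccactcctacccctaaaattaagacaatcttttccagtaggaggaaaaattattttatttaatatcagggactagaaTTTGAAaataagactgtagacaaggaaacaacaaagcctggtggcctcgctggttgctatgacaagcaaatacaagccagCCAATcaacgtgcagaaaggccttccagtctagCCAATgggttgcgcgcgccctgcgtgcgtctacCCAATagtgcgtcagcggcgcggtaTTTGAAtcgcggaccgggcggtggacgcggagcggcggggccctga
Cdk1 (chr10:69352863-69353162, minus strand): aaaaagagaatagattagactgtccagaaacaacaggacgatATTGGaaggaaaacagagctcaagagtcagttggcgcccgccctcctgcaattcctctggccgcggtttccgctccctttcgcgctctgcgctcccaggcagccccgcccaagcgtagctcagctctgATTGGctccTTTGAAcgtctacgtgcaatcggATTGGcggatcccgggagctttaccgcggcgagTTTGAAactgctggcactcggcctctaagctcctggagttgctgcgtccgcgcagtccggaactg
Cdc20 (chr4:118437294-118437593, minus strand): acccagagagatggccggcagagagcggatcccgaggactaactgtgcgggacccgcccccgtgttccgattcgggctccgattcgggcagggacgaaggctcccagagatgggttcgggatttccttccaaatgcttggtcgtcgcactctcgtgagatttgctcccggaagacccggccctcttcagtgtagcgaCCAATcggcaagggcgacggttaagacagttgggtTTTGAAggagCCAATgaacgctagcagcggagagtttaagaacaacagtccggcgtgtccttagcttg
Mki67 (chr7:135716330-135716629, minus strand): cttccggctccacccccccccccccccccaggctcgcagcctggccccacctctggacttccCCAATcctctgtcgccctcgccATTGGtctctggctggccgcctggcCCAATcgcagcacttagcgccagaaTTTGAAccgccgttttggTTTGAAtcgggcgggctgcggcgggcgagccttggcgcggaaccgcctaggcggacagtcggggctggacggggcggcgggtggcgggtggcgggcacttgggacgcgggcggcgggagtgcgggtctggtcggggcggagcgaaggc
Ect2 (chr3:27153829-27154128, minus strand): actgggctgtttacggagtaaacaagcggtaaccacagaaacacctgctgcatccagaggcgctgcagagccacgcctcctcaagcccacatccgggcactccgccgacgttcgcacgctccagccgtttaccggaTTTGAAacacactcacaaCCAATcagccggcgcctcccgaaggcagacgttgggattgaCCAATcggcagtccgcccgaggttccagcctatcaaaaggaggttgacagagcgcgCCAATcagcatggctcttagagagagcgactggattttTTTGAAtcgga
Anln (chr9:22389157-22389456, minus strand): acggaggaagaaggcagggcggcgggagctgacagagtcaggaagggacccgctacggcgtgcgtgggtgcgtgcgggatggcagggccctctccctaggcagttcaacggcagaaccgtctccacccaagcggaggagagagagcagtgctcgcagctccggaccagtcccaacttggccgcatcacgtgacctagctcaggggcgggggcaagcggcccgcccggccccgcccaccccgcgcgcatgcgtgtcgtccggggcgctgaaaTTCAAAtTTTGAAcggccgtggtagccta

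Both sets of windows held CHR motifs: all 7 genes that rose at day 3 had at least 1, as did 20 of the 27 genes with a window that fell (74.1%) and 1 of the 4 with a window that were not called. A CHR motif together with 2 or more CCAAT boxes was found in 6 of the 7 windows of genes that rose, in 8 of the 27 of genes that fell (29.6%), and in 2.43% of all windows. Among 47 windows of other mitosis genes, 26 held a CHR motif (55.3%), 38.3% held 2 or more CCAAT and 27.7% held both. Among 13 windows of genes of the MCM helicase and replication origins, 38.5% held a CHR motif and 76.9% a CCAAT. In those 13, 61.5% held 2 or more CCAAT and 23.1% held these with a CHR motif. Subunits of the anaphase-promoting complex were lower, with a CHR motif in 15.4% and a CCAAT in 30.8% of 13 windows. These are descriptions of few windows.

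Across the 3 days sampled the 42 genes moved in both directions by day 3 and in a single direction by day 7. By day 7 all 42 had fallen below day -1, with a median log2 fold change of -1.73, a 3.33-fold lower level, against -0.0064 over all genes tested, of which 42.8% were called lower. From day 3 to day 7 all 42 fell as well, with a median of -1.30 (36.5% of all genes called lower). At day 3, in contrast, 29 had fallen, 7 had risen and 6 were not called, where 39.6% of all genes fell and 37.9% rose. With library sizes alone in place of TMM, 25 fell and 11 rose. The median at day 3 was -0.39 over the 42 genes and -0.024 over all genes, and the genes ran from Mki67 at -1.51 to Ccnb2 at 0.45.

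**Figure D1:**
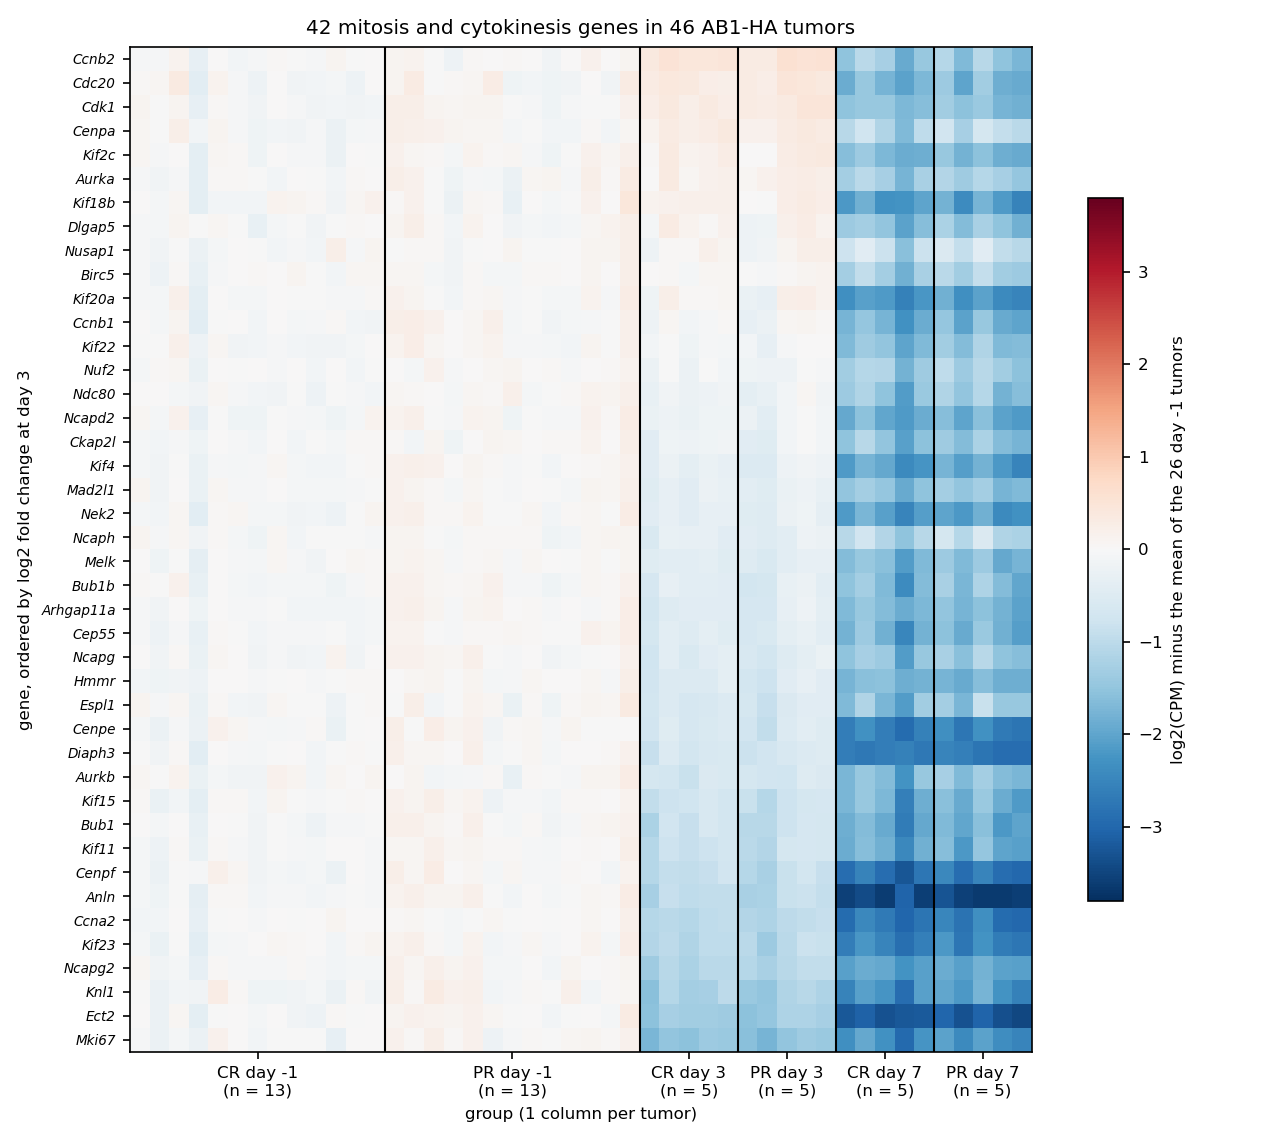
Heat map of 42 genes (rows, ordered by the log2 fold change at day 3) in 46 tumors (columns, by group), as log2 CPM minus the mean of the 26 tumors of day -1. On average over the tumors of day 3, rows from Ccnb2 to Kif18b at the top are above 0 and rows from Nuf2 downwards below 0. Single tumors lie on the other side of 0 in some of these rows. Every row is below 0 at day 7.

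The same was seen tumor by tumor. For all 42 genes every day 7 tumor lay below every day -1 tumor, which held for 19.5% of all genes, and for 40 of the 42 every day 7 tumor lay below every day 3 tumor (17.2% of all genes), with 1 tumor overlapping for Ncaph and 1 for Espl1. At day 3, 20 genes had all 10 tumors below all 26 tumors of day -1 (14.7% of all genes) and 1, Ccnb2, had all 10 above (12.2% of all genes). The summed level of the 42 genes ran from 6539 to 9064 CPM at day -1, from 4817 to 6075 CPM at day 3 and from 1488 to 2470.1 CPM at day 7, with no overlap between the days. This sum gives most weight to genes of high level such as Mki67. On the mean log2 CPM of the 42 genes, day -1 (6.943 to 7.413) and day 3 (6.625 to 6.966) overlapped. Day 7 (4.932 to 5.65) lay below both.

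Markers of other cells moved over the same days, and their part in these changes was not tested. Of all genes, 37.9% were called higher and 39.6% lower at day 3, and 43% higher and 42.8% lower at day 7. The day 3 counts called lower for T cell markers (3 of 8) and skeletal muscle markers (2 of 5) were near that share. Summed macrophage markers (7 of 7 higher at both later days) ran from 2147 to 5048 CPM at day -1, from 7558 to 9642 CPM at day 3 and from 10421 to 17394 CPM at day 7. Neutrophil markers (3 of 5 higher at day 3, 5 of 5 at day 7) ran from 15.8 to 85.7, from 53.0 to 94.5 and from 299.2 to 612 CPM. Only 2 of these 5 passed the filter on low counts within day -1 and 3 within day 3, against 5 within day 7. The counts called higher can therefore rest partly on markers that passed the filter through the tumors where they were high. T cell markers (3 of 8 lower at day 3, 8 of 8 higher at day 7) ran from 35.3 to 188, from 37.8 to 97.6 and from 137 to 720.4 CPM. Red cell markers (1 higher and 3 lower of 4 at day 3, 4 of 4 higher at day 7) ran from 14.3 to 100.3, from 2.53 to 7.54 and from 178 to 452 CPM. The same limit holds for red cell markers, of which 2 of 4 passed the filter within day -1, 1 within day 3 and 4 within day 7. Summed mesothelial markers, nearly all Msln, ran from 288 to 611 CPM at day -1, from 301 to 492 CPM at day 3 and from 52.0 to 133 CPM at day 7. Fibroblast markers (4 of 5 higher at day 3, 2 higher and 3 lower of 5 at day 7) ran from 19336 to 32015, from 28185 to 33180 and from 10378 to 31659 CPM, the last in CR replicate 4 alone, with the other 9 tumors of day 7 at 16454 CPM or less. Skeletal muscle markers (2 of 5 lower at day 3, 4 of 5 higher at day 7) ran from 103 to 906, from 117 to 384 and from 233 to 1684 CPM. No defining marker of macrophages was at 0 in any tumor.

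Cyclins, Cdk1 and Ki-67 took different directions at day 3. Of these 5 genes, Cdk1 and Ccnb2 rose at day 3, Mki67 and Ccna2 fell and Ccnb1 was not called, and all 5 had fallen by day 7. Mki67, the Ki-67 protein that coats mitotic chromosomes and marks cycling cells, lay before CY between 1052 and 1452 CPM (median 1290.3) in CR and between 1139 and 1512 CPM (median 1356) in PR. Mki67 at day 3 measured 393, 459, 447, 497 and 495 CPM in CR and 436, 385, 466, 509.6 and 495 CPM in PR. By day 7 Mki67 measured 261, 339, 265, 169 and 274 CPM in CR and 319, 244, 322, 254 and 229 CPM in PR. Every Mki67 value of day 3 was below every value before CY, every day 7 value was lower still, and CR and PR overlapped at each day. Mki67 fell at both days, with log2 fold changes of -1.51 (SE 0.069, adjusted p = 1.29e-23) and -2.29 (SE 0.073, adjusted p = 4.99e-30) against day -1.

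Cdk1, the kinase that drives entry into mitosis, ranged from 182 to 242 CPM (median 217) in the CR tumors before CY and from 200.2 to 265 CPM (median 237) in the PR tumors. The day 3 Cdk1 levels were 269.8, 294, 263, 286 and 267 CPM in CR and 276, 273, 286, 306 and 307 CPM in PR. The day 7 Cdk1 levels were 78.6, 83.5, 83.2, 69.2 and 72.8 CPM in CR and 89.1, 75.7, 85, 66.2 and 64 CPM in PR. Of the 10 day 3 values of Cdk1, 9 were above the range before CY and 1 within it, every day 7 value was below every value of both earlier days, and CR and PR overlapped throughout. Cdk1 rose at day 3 and fell by day 7, with log2 fold changes of 0.33 (SE 0.044, adjusted p = 7.94e-09) and -1.55 (SE 0.049, adjusted p = 4.20e-30) against day -1. Ccna2, cyclin A of S and G2 phase, averaged 597 ± 35.2 CPM (SD, n = 26) before CY, 294 ± 19.3 CPM (n = 10) at day 3 and 90.7 ± 15.5 CPM (n = 10) at day 7, with log2 fold changes of -1.02 and -2.72 against day -1. Every Ccna2 value of day 3 was below every value before CY.

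Ccnb2, a B-type cyclin and partner of Cdk1, lay before CY between 99.9 and 136 CPM (median 122) in CR and between 108 and 139 CPM (median 126) in PR. Ccnb2 at day 3 measured 159, 178, 167, 167 and 172 CPM in CR and 153, 155, 187, 179 and 180.1 CPM in PR. By day 7 Ccnb2 measured 43.3, 61.6, 51.5, 33.2 and 46 CPM in CR and 59, 38.8, 60.2, 43 and 37.2 CPM in PR. Every Ccnb2 value of day 3 was above every value before CY, every day 7 value was below every value of both earlier days, and CR and PR overlapped throughout. Ccnb2 rose at day 3 and fell by day 7, with log2 fold changes of 0.45 (SE 0.061, adjusted p = 1.13e-08) and -1.39 (SE 0.068, adjusted p = 4.05e-23) against day -1. Ccnb1, the main B-type cyclin, ranged from 125 to 175 CPM (median 159) in the CR tumors before CY and from 149 to 193 CPM (median 165) in the PR tumors. The day 3 Ccnb1 levels were 144, 171, 154, 157 and 171 CPM in CR and 131, 139, 173, 177 and 168 CPM in PR. The day 7 Ccnb1 levels were 47.9, 59.6, 47.7, 33.3 and 43.9 CPM in CR and 59.4, 40.0, 59.8, 43.4 and 41.2 CPM in PR. All 10 day 3 values of Ccnb1 lay within the range before CY, every day 7 value was below every value of both earlier days, and CR and PR overlapped throughout. Against day -1, Ccnb1 was not called at day 3, at -0.052 (SE 0.064, adjusted p = 0.462) on the log2 scale, and had fallen by day 7, at -1.79 (SE 0.071, adjusted p = 2.13e-26). The closely related Ccnb1 and Ccnb2 thus lay -0.052 and 0.45 from day -1 at day 3.

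**Figure D2:**
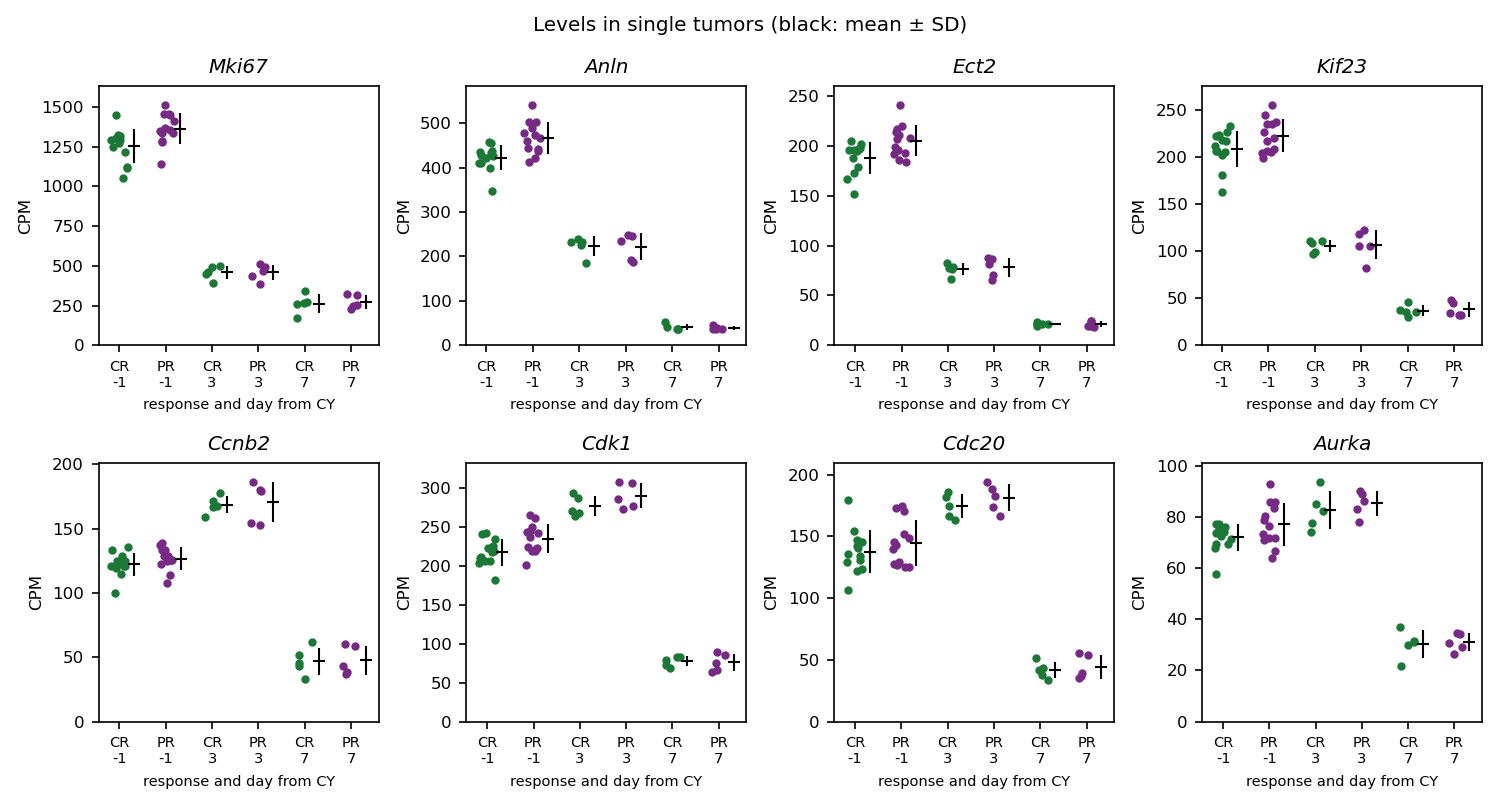
CPM of 8 genes in every tumor (y axis from 0) by response and day from CY (x axis); green points are CR, purple points PR, and black marks give the mean ± SD of each group. Mki67, Anln, Ect2 and Kif23 are lower at day 3 and lower again at day 7, while Ccnb2, Cdk1 and Cdc20 are highest at day 3 and lowest at day 7.

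A ratio of 2 genes within a tumor does not depend on the scaling of libraries, but it does depend on trends with transcript length. The longest transcripts of Ccnb2 (1531 nt) and Cdc20 (1793 nt) are shorter than that of Mki67 (10061 nt). Those of Cdk1 (4375 nt) and Anln (4605 nt) are closer. At day 3 the median log2 fold change of all genes was 0.22 in the shortest group by length and -0.31 in the longest. The part of length in these ratios was not tested. The log2 ratio of Ccnb2 to Mki67 CPM ran from -3.65 to -2.98 in the 26 tumors of day -1, from -1.57 to -1.30 in the 10 of day 3 and from -2.65 to -2.35 in the 10 of day 7. The 3 days did not overlap, and day 3 was the highest. For Cdc20 to Mki67 the ranges were -3.43 to -2.74, -1.60 to -1.17 and -2.79 to -2.31, again with day 3 highest. Between Cdk1 and Anln the ratio ran from -1.12 to -0.81, from 0.20 to 0.55 and from 0.38 to 1.24. The median of this pair went from 0.30 at day 3 to 0.98 at day 7. These 2 days overlapped through CR replicate 4 of day 7 (0.38), while the other tumors of day 7 ran from 0.79 to 1.24. The pairs were picked with the fold changes known, so no test is given.

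Among 5 genes of the spindle checkpoint and anaphase, Cdc20 rose at day 3 and the other 4 fell. Bub1b, the checkpoint kinase BubR1, lay before CY between 118 and 160.3 CPM (median 137) in CR and between 129 and 163 CPM (median 152) in PR. Bub1b at day 3 measured 93.5, 116, 109, 109 and 106 CPM in CR and 88.5, 90.5, 119, 123 and 109 CPM in PR. By day 7 Bub1b measured 49.8, 58.3, 45.3, 27.6 and 46.1 CPM in CR and 61.5, 43.4, 63.6, 46.1 and 36.4 CPM in PR. Of the 10 day 3 values of Bub1b, 8 were below the range before CY and 2 within it, every day 7 value was below every value of both earlier days, and CR and PR overlapped throughout. Bub1b fell at both days, with log2 fold changes of -0.44 (SE 0.072, adjusted p = 6.09e-07) and -1.60 (SE 0.078, adjusted p = 4.55e-23) against day -1. Cdc20, the activator of the anaphase-promoting complex, ranged from 106 to 179 CPM (median 136) in the CR tumors before CY and from 125 to 175 CPM (median 143) in the PR tumors. The day 3 Cdc20 levels were 175, 186, 182, 167 and 164 CPM in CR and 174, 167, 194, 189 and 183 CPM in PR. The day 7 Cdc20 levels were 37.7, 51.9, 41.6, 34.1 and 43.2 CPM in CR and 53.6, 35.2, 55.8, 39.1 and 36.9 CPM in PR. Of the 10 day 3 values of Cdc20, 5 were above the range before CY and 5 within it, every day 7 value was below every value of both earlier days, and CR and PR overlapped throughout. Cdc20 rose at day 3 and fell by day 7, with log2 fold changes of 0.33 (SE 0.067, adjusted p = 2.21e-05) and -1.72 (SE 0.076, adjusted p = 1.19e-24) against day -1.

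Bub1, a checkpoint kinase of the kinetochore, averaged 118 ± 9.76 CPM (SD, n = 26) before CY, 66.3 ± 8.72 CPM (n = 10) at day 3 and 31.1 ± 6 CPM (n = 10) at day 7, with log2 fold changes of -0.83 and -1.92 against day -1. Mad2l1, the Mad2 protein that restrains Cdc20, averaged 159.8 ± 10.5 CPM (SD, n = 26) before CY, 127 ± 9.14 CPM (n = 10) at day 3 and 56 ± 7.95 CPM (n = 10) at day 7, with log2 fold changes of -0.33 and -1.51 against day -1. Espl1, separase, which cleaves cohesin, averaged 119.6 ± 11.5 CPM (SD, n = 26) before CY, 79.3 ± 7.21 CPM (n = 10) at day 3 and 43.9 ± 10.9 CPM (n = 10) at day 7, with log2 fold changes of -0.59 and -1.45 against day -1. Of these 3 genes, Bub1 and Espl1 had every day 3 tumor below every day -1 tumor, and Mad2l1 had 8 of 10. With offsets by transcript length Mad2l1 was at 0.019 at day 3.

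In the group of mitotic kinases with survivin, Aurka rose at day 3, Aurkb, Nek2 and Melk fell, and Birc5 was not called. Aurka, the kinase of spindle poles, lay before CY between 57.9 and 77.3 CPM (median 73.9) in CR and between 63.8 and 92.9 CPM (median 76.5) in PR. Aurka at day 3 measured 74.2, 93.8, 77.7, 82.3 and 85.2 CPM in CR and 78.2, 83.1, 89, 90.2 and 86.2 CPM in PR. By day 7 Aurka measured 30.1, 36.9, 31.2, 21.6 and 31.7 CPM in CR and 34.1, 29.4, 34.8, 30.6 and 26.5 CPM in PR. Of the 10 day 3 values of Aurka, 1 was above the range before CY and 9 within it, every day 7 value was below every value of both earlier days, and CR and PR overlapped throughout. Aurka rose at day 3 and fell by day 7, with log2 fold changes of 0.17 (SE 0.054, adjusted p = 0.00467) and -1.28 (SE 0.060, adjusted p = 9.74e-24) against day -1. With offsets by transcript length Aurka was at -0.023 at day 3. Aurkb, the kinase of the chromosomal passenger complex, ranged from 108 to 145 CPM (median 131) in the CR tumors before CY and from 106 to 157 CPM (median 132) in the PR tumors. The day 3 Aurkb levels were 81.2, 80.2, 72.7, 88.3 and 87.3 CPM in CR and 82.4, 78.5, 76.4, 92.3 and 88.7 CPM in PR. The day 7 Aurkb levels were 38.9, 48.3, 41.2, 26.8 and 48.3 CPM in CR and 53.7, 40.8, 53.6, 41.2 and 39.4 CPM in PR. Every Aurkb value of day 3 was below every value before CY, every day 7 value was lower still, and CR and PR overlapped at each day. Aurkb fell at both days, with log2 fold changes of -0.66 (SE 0.063, adjusted p = 1.07e-12) and -1.60 (SE 0.067, adjusted p = 1.81e-25) against day -1.

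Birc5, survivin, which works in one complex with Aurkb, averaged 185 ± 13.1 CPM (SD, n = 26) before CY, 189 ± 8.35 CPM (n = 10) at day 3 and 78.5 ± 13.8 CPM (n = 10) at day 7, with log2 fold changes of 0.035 and -1.24 against day -1. At day 3 Aurkb was called lower (adjusted p = 1.07e-12) and its partner Birc5 was not (adjusted p = 0.558, edgeR), and the difference between them was not tested. Nek2, a kinase of centrosome separation, averaged 101 ± 9.26 CPM (SD, n = 26) before CY, 79.5 ± 6.27 CPM (n = 10) at day 3 and 23.4 ± 3.96 CPM (n = 10) at day 7, with log2 fold changes of -0.35 and -2.11 against day -1. Melk, a kinase of proliferating cells, averaged 85.4 ± 5.45 CPM (SD, n = 26) before CY, 63.7 ± 3.51 CPM (n = 10) at day 3 and 27.3 ± 4.34 CPM (n = 10) at day 7, with log2 fold changes of -0.42 and -1.65 against day -1. For Nek2 4 and for Melk 8 of the 10 day 3 tumors were below the range before CY.

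At the kinetochore and centromere, 5 of 6 genes fell at day 3 and Cenpa rose. Ndc80, the subunit that grips microtubules, lay before CY between 56.7 and 67.9 CPM (median 62) in CR and between 60.7 and 74.2 CPM (median 67.3) in PR. Ndc80 at day 3 measured 53.1, 58.6, 55.7, 56.5 and 59 CPM in CR and 50.0, 52.8, 60.1, 68.2 and 59.2 CPM in PR. By day 7 Ndc80 measured 24.8, 29.2, 22.5, 14.9 and 24.3 CPM in CR and 29.3, 22.7, 30.4, 18.6 and 21.2 CPM in PR. Of the 10 day 3 values of Ndc80, 5 were below the range before CY and 5 within it, every day 7 value was below every value of both earlier days, and CR and PR overlapped throughout. Ndc80 fell at both days, with log2 fold changes of -0.17 (SE 0.060, adjusted p = 0.00941) and -1.44 (SE 0.066, adjusted p = 4.04e-24) against day -1. Cenpe, a kinetochore motor that helps chromosomes line up, ranged from 201 to 267 CPM (median 232) in the CR tumors before CY and from 219 to 286 CPM (median 249) in the PR tumors. The day 3 Cenpe levels were 145, 175, 155, 161 and 166 CPM in CR and 144, 125, 167, 181 and 169.7 CPM in PR. The day 7 Cenpe levels were 38.9, 48.7, 38.4, 31.7 and 40.5 CPM in CR and 47, 35.7, 48.6, 37.2 and 35 CPM in PR. Every Cenpe value of day 3 was below every value before CY, every day 7 value was lower still, and CR and PR overlapped at each day. Cenpe fell at both days, with log2 fold changes of -0.59 (SE 0.057, adjusted p = 1.11e-12) and -2.58 (SE 0.065, adjusted p = 1.91e-33) against day -1.

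Nuf2, the direct partner of Ndc80, averaged 80.5 ± 4.45 CPM (SD, n = 26) before CY, 74.1 ± 4.51 CPM (n = 10) at day 3 and 33.2 ± 5.48 CPM (n = 10) at day 7, with log2 fold changes of -0.12 and -1.28 against day -1. Knl1, the scaffold that recruits checkpoint kinases, averaged 84.4 ± 9.09 CPM (SD, n = 26) before CY, 35.6 ± 4.62 CPM (n = 10) at day 3 and 18 ± 3.87 CPM (n = 10) at day 7, with log2 fold changes of -1.24 and -2.23 against day -1. Cenpf, a large kinetochore protein of G2 and mitosis, averaged 190.5 ± 16.1 CPM (SD, n = 26) before CY, 100.5 ± 11 CPM (n = 10) at day 3 and 27.5 ± 4.64 CPM (n = 10) at day 7, with log2 fold changes of -0.92 and -2.79 against day -1. Every day 3 tumor was below every day -1 tumor for Knl1 and Cenpf, while for Nuf2 all 10 lay within the range before CY, and Nuf2 was at 0.0017 with library sizes alone. Cenpa, the histone that marks centromeres, averaged 149 ± 12.9 CPM (SD, n = 26) before CY, 179.7 ± 10.8 CPM (n = 10) at day 3 and 74.8 ± 14.1 CPM (n = 10) at day 7, with log2 fold changes of 0.27 and -1.0 against day -1. For Cenpa 7 of the 10 day 3 tumors were above every day -1 tumor.

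Of 8 kinesins, 4 fell at day 3 (Kif23, Kif11, Kif15 and Kif4), 2 rose (Kif2c and Kif18b) and 2 were not called (Kif20a and Kif22). Kif11, the motor that pushes spindle poles apart, lay before CY between 162 and 199.7 CPM (median 187) in CR and between 186 and 227 CPM (median 199) in PR. Kif11 at day 3 measured 90.8, 113, 105, 112 and 119 CPM in CR and 94.9, 90.3, 121, 124 and 122 CPM in PR. By day 7 Kif11 measured 52.3, 62.9, 54.6, 35.8 and 54.1 CPM in CR and 62.6, 42.8, 69.4, 48.1 and 46.6 CPM in PR. Every Kif11 value of day 3 was below every value before CY, every day 7 value was lower still, and CR and PR overlapped at each day. Kif11 fell at both days, with log2 fold changes of -0.83 (SE 0.064, adjusted p = 1.08e-15) and -1.87 (SE 0.069, adjusted p = 9.36e-28) against day -1. Kif23, a motor of the central spindle, ranged from 163 to 232 CPM (median 211) in the CR tumors before CY and from 198 to 255 CPM (median 220.3) in the PR tumors. The day 3 Kif23 levels were 98.9, 109, 97, 111 and 111 CPM in CR and 105, 82.4, 105, 122 and 118 CPM in PR. The day 7 Kif23 levels were 35.1, 46.1, 37.8, 29.5 and 35.4 CPM in CR and 47.5, 31.9, 44.5, 33.8 and 31.8 CPM in PR. Every Kif23 value of day 3 was below every value before CY, every day 7 value was lower still, and CR and PR overlapped at each day. Kif23 fell at both days, with log2 fold changes of -1.02 (SE 0.064, adjusted p = 8.30e-19) and -2.53 (SE 0.071, adjusted p = 6.05e-32) against day -1.

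Kif15, a motor that supports spindle bipolarity, averaged 124 ± 10.9 CPM (SD, n = 26) before CY, 72.4 ± 7.07 CPM (n = 10) at day 3 and 35.6 ± 7.96 CPM (n = 10) at day 7, with log2 fold changes of -0.78 and -1.80 against day -1. Kif4, a chromosome-bound kinesin, averaged 107 ± 7.76 CPM (SD, n = 26) before CY, 86.1 ± 8.36 CPM (n = 10) at day 3 and 25.5 ± 4.61 CPM (n = 10) at day 7, with log2 fold changes of -0.31 and -2.07 against day -1. Kif20a, a kinesin of the central spindle, averaged 199 ± 16.5 CPM (SD, n = 26) before CY, 204 ± 27.4 CPM (n = 10) at day 3 and 42.4 ± 6.93 CPM (n = 10) at day 7, with log2 fold changes of 0.035 and -2.23 against day -1. Kif20a and Kif23 act at the same structure, and at day 3 their values were 0.035 and -1.02. Kif22, a chromosome-bound kinesin, averaged 136 ± 10.9 CPM (SD, n = 26) before CY, 128 ± 8.10 CPM (n = 10) at day 3 and 46.3 ± 7.76 CPM (n = 10) at day 7, with log2 fold changes of -0.087 and -1.55 against day -1. Kif2c, a microtubule-depolymerizing kinesin, averaged 85.9 ± 7.29 CPM (SD, n = 26) before CY, 98.8 ± 9.47 CPM (n = 10) at day 3 and 26.5 ± 3.63 CPM (n = 10) at day 7, with log2 fold changes of 0.20 and -1.70 against day -1. Kif18b, a kinesin that shortens astral microtubules, averaged 92.9 ± 10.2 CPM (SD, n = 26) before CY, 104 ± 7.37 CPM (n = 10) at day 3 and 21.6 ± 3.99 CPM (n = 10) at day 7, with log2 fold changes of 0.16 and -2.10 against day -1. Kif2c and Kif18b, which both shorten microtubules, had risen at day 3 and fell by day 7. For Kif18b all 10 day 3 tumors lay within the range before CY, and for Kif2c 5 lay within it and 5 above.

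All 4 condensin genes fell at day 3 and again by day 7. Ncapg, a subunit of condensin I, lay before CY between 82.5 and 107 CPM (median 95.3) in CR and between 89.7 and 111 CPM (median 99.6) in PR. Ncapg at day 3 measured 57.7, 73.7, 65.7, 72.2 and 75 CPM in CR and 64.3, 60.8, 69.1, 76.3 and 82 CPM in PR. By day 7 Ncapg measured 34.1, 40.7, 37.5, 22.5 and 35.9 CPM in CR and 41.3, 32.2, 46.9, 33.7 and 31.6 CPM in PR. Every Ncapg value of day 3 was below every value before CY, every day 7 value was lower still, and CR and PR overlapped at each day. Ncapg fell at both days, with log2 fold changes of -0.49 (SE 0.062, adjusted p = 1.67e-09) and -1.46 (SE 0.066, adjusted p = 2.86e-24) against day -1. Ncapg2, its counterpart in condensin II, ranged from 140.3 to 182 CPM (median 166) in the CR tumors before CY and from 162 to 199 CPM (median 184) in the PR tumors. The day 3 Ncapg2 levels were 67.8, 83.8, 75.5, 84.9 and 84.6 CPM in CR and 81.2, 73.5, 84.1, 91.3 and 91.4 CPM in PR. The day 7 Ncapg2 levels were 41.1, 47.1, 44.9, 35.9 and 41.6 CPM in CR and 47.2, 41.4, 50.3, 42.7 and 41 CPM in PR. Every Ncapg2 value of day 3 was below every value before CY, every day 7 value was lower still, and CR and PR overlapped at each day. Ncapg2 fell at both days, with log2 fold changes of -1.08 (SE 0.045, adjusted p = 3.05e-25) and -2.0 (SE 0.048, adjusted p = 2.17e-34) against day -1. Ncapd2, a condensin I subunit, averaged 379.6 ± 36.7 CPM (SD, n = 26) before CY, 332 ± 23.3 CPM (n = 10) at day 3 and 103 ± 16.5 CPM (n = 10) at day 7, with log2 fold changes of -0.19 and -1.88 against day -1. Ncaph, the condensin I kleisin, averaged 68.3 ± 4.11 CPM (SD, n = 26) before CY, 53.1 ± 4.43 CPM (n = 10) at day 3 and 34.3 ± 6.90 CPM (n = 10) at day 7, with log2 fold changes of -0.36 and -0.99 against day -1. With offsets by transcript length Ncapd2 was at 0.032 at day 3. Ncaph had the smallest fall from day 3 to day 7 of the 42 genes, at -0.63.

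Of 4 spindle assembly factors, Hmmr and Ckap2l fell at day 3, Nusap1 and Dlgap5 were not called, and all 4 had fallen by day 7. Nusap1, which bundles spindle microtubules, lay before CY between 94.3 and 128 CPM (median 107) in CR and between 101 and 127 CPM (median 111) in PR. Nusap1 at day 3 measured 95.2, 114, 113, 125 and 118 CPM in CR and 95.8, 99.4, 118, 129 and 128 CPM in PR. By day 7 Nusap1 measured 63.7, 80.9, 62.4, 36.2 and 63 CPM in CR and 75.5, 58.1, 81.7, 57 and 53.2 CPM in PR. Of the 10 day 3 values of Nusap1, 2 were above the range before CY and 8 within it, every day 7 value was below every value of both earlier days, and CR and PR overlapped throughout. Against day -1, Nusap1 was not called at day 3, at 0.044 (SE 0.068, adjusted p = 0.571) on the log2 scale, and had fallen by day 7, at -0.80 (SE 0.072, adjusted p = 6.45e-14). Hmmr, a spindle protein also known as RHAMM, ranged from 132 to 158 CPM (median 151) in the CR tumors before CY and from 145 to 178 CPM (median 155) in the PR tumors. The day 3 Hmmr levels were 91.6, 106, 107, 106 and 118 CPM in CR and 94.2, 88.7, 112, 123 and 114 CPM in PR. The day 7 Hmmr levels were 44.9, 50.7, 51.8, 42.3 and 43.6 CPM in CR and 44.3, 40.7, 49.6, 42.3 and 42.2 CPM in PR. Every Hmmr value of day 3 was below every value before CY, every day 7 value was lower still, and CR and PR overlapped at each day. Hmmr fell at both days, with log2 fold changes of -0.52 (SE 0.042, adjusted p = 4.90e-15) and -1.75 (SE 0.046, adjusted p = 5.67e-33) against day -1. Dlgap5, a microtubule-binding protein known as HURP, averaged 91 ± 7.45 CPM (SD, n = 26) before CY, 96.6 ± 11.5 CPM (n = 10) at day 3 and 32 ± 5.69 CPM (n = 10) at day 7, with log2 fold changes of 0.087 and -1.51 against day -1. Ckap2l, a spindle pole protein, averaged 94.1 ± 6.10 CPM (SD, n = 26) before CY, 81.1 ± 8.55 CPM (n = 10) at day 3 and 33.1 ± 6.61 CPM (n = 10) at day 7, with log2 fold changes of -0.21 and -1.51 against day -1. Nusap1 had the smallest fall of the 42 genes at day 7.

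The 5 cytokinesis genes all fell at day 3 and held the 3 smallest p values of the 42 genes at day 7 (Ect2, Anln and Diaph3). Anln, the cleavage furrow scaffold anillin, lay before CY between 348 and 457 CPM (median 427) in CR and between 413 and 540.4 CPM (median 466) in PR. Anln at day 3 measured 184, 240.1, 226, 232 and 232 CPM in CR and 188, 191, 246, 249 and 235 CPM in PR. By day 7 Anln measured 37.5, 41.9, 36.5, 53.3 and 37.2 CPM in CR and 45.8, 37.8, 35.9, 35.5 and 37.1 CPM in PR. Every Anln value of day 3 was below every value before CY, every day 7 value was lower still, and CR and PR overlapped at each day. Anln fell at both days, with log2 fold changes of -1.0 (SE 0.055, adjusted p = 1.03e-20) and -3.48 (SE 0.065, adjusted p = 7.94e-38) against day -1. Ect2, the exchange factor that activates RhoA at the furrow, ranged from 152 to 205 CPM (median 196) in the CR tumors before CY and from 184 to 241 CPM (median 207) in the PR tumors. The day 3 Ect2 levels were 66.4, 82.2, 77.7, 78.5 and 76.8 CPM in CR and 65.9, 70.8, 86.2, 87.1 and 81.2 CPM in PR. The day 7 Ect2 levels were 21, 23.5, 19.6, 20.8 and 21.6 CPM in CR and 24.4, 19.6, 24, 19.4 and 18 CPM in PR. Every Ect2 value of day 3 was below every value before CY, every day 7 value was lower still, and CR and PR overlapped at each day. Ect2 fell at both days, with log2 fold changes of -1.35 (SE 0.052, adjusted p = 2.38e-26) and -3.21 (SE 0.059, adjusted p = 6.16e-38) against day -1.

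Diaph3, a formin that builds actin filaments, lay before CY between 139.6 and 192 CPM (median 182) in CR and between 173 and 209.7 CPM (median 191) in PR. Diaph3 at day 3 measured 100.4, 128, 114, 122 and 122 CPM in CR and 104, 112, 122, 128 and 132 CPM in PR. By day 7 Diaph3 measured 29.6, 28.1, 29.8, 30.9 and 28 CPM in CR and 32, 30.5, 26.7, 24.7 and 24.8 CPM in PR. Every Diaph3 value of day 3 was below every value before CY, every day 7 value was lower still, and CR and PR overlapped at each day. Diaph3 fell at both days, with log2 fold changes of -0.64 (SE 0.044, adjusted p = 2.09e-17) and -2.69 (SE 0.051, adjusted p = 8.91e-38) against day -1. Cep55, a midbody protein of the final cut, ranged from 84.6 to 106 CPM (median 99.1) in the CR tumors before CY and from 98.8 to 122 CPM (median 107) in the PR tumors. The day 3 Cep55 levels were 64.3, 77.7, 72.8, 79.1 and 74.3 CPM in CR and 65.4, 68.5, 79.8, 83.7 and 78.2 CPM in PR. The day 7 Cep55 levels were 29.5, 39.2, 28.8, 18.5 and 29.5 CPM in CR and 34.7, 27.3, 38.4, 29.1 and 23.9 CPM in PR. Every Cep55 value of day 3 was below every value before CY, every day 7 value was lower still, and CR and PR overlapped at each day. Cep55 fell at both days, with log2 fold changes of -0.46 (SE 0.062, adjusted p = 8.85e-09) and -1.78 (SE 0.069, adjusted p = 6.00e-27) against day -1. Arhgap11a, a GTPase-activating protein, averaged 169.8 ± 12.6 CPM (SD, n = 26) before CY, 124 ± 13.2 CPM (n = 10) at day 3 and 52.7 ± 6.44 CPM (n = 10) at day 7, with log2 fold changes of -0.46 and -1.69 against day -1. Anln was 11.1-fold lower at day 7 than at day -1, the furthest of the 42 genes.

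**Figure D3:**
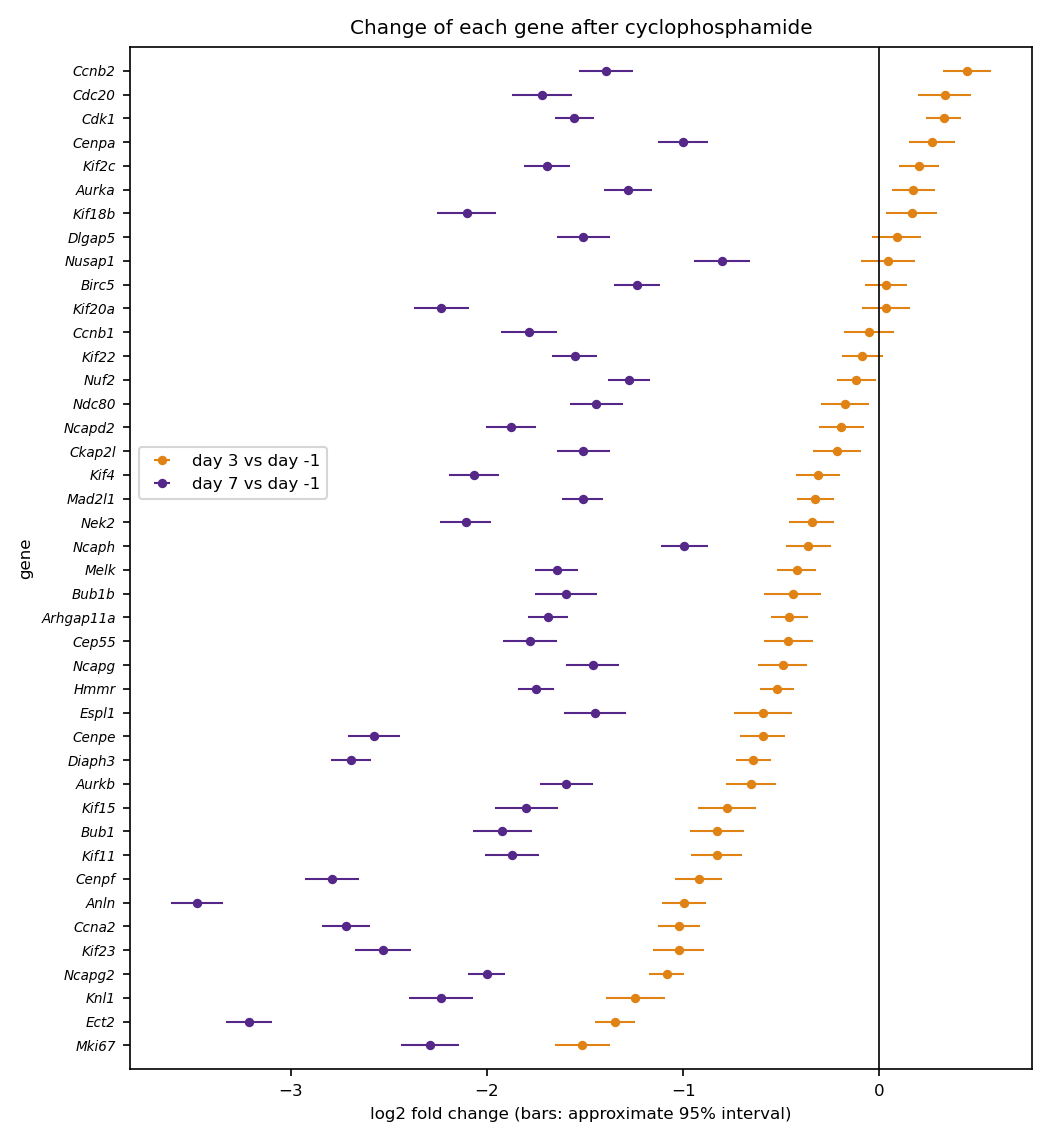
Log2 fold change of each of the 42 genes at day 3 (orange) and day 7 (purple) against day -1 (x axis), with approximate 95% intervals as bars; genes are on the y axis. The day 3 values run from -1.51 to 0.45 and the day 7 values from -3.48 to -0.80.

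The share of the day 7 change that was present at day 3, on the log2 scale, also varied by gene. It was 66.1% for Mki67, 55.7% for Knl1 and 54.2% for Ncapg2, but 28.6% for Anln, 23.1% for Cenpe and 2.92% for Ccnb1. Against day -1, Mki67 was at -2.29 and Anln at -3.48 at day 7. 

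Genes with longer transcripts had lower fold changes at day 3, among the 42 as among all genes. The 7 genes that rose had a median transcript length of 1905 nt (GENCODE M21, longest transcript), the 6 not called 3430 nt and the 29 that fell 4086 nt. Across genes, which are not independent replicates, Spearman's rho of the day 3 fold change with transcript length was -0.57 over the 42 and -0.23 over 12957 tested genes with a length. From the shortest to the longest of 5 equal groups by length, the median log2 fold change at day 3 of all genes went from 0.22 to -0.31. With GC content rho was 0.48 over the 42 and 0.23 over all genes. At day 7 against day -1, rho with length was -0.50 over the 42 and -0.16 over all genes, and the medians of the 5 groups by length went from 0.28 to -0.30. At day 7 against day 3, it was 0.098 over the 42 and -0.033 over all genes. With library offsets fitted in bins of transcript length, an alternative chosen after the data were seen, 8 genes rose and 27 fell at day 3, the median went from -0.39 to -0.26, and Aurka went from 0.17 to -0.023, while all 42 genes were still called lower at day 7.

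**Figure D4:**
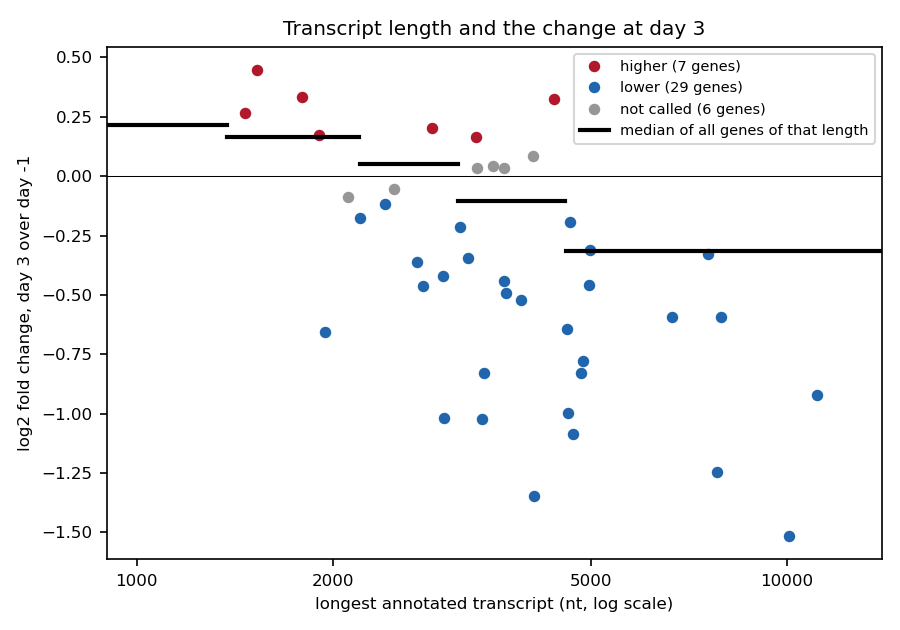
Log2 fold change at day 3 against day -1 (y axis) and length of the longest annotated transcript (x axis, log scale) for 42 genes; red points rose, blue fell and grey were not called, and black lines give the median of all tested genes in each of 5 equal groups by length. The median length is 1905 nt for the red and 4086 nt for the blue points, and Aurka, among the red points, falls to -0.023 with offsets by transcript length.

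Related genes of the cell cycle, from lists written down with earlier results known, were tested in the same model, in which 39.6% of all genes fell and 37.9% rose at day 3, and 42.8% fell and 43% rose at day 7. Of 55 other mitosis genes tested, 53 fell and 0 rose at day 7 (median -1.47), and 26 fell and 18 rose at day 3 (median -0.050). Ncapd3 (-1.01) and Ckap5 (-0.71) were among the 3 that fell at day 3 with the smallest p, and Cenpt (0.69), Ckap2 (0.96) and Kifc1 (0.80) rose. At day 3 the shares of these other genes that fell and rose were thus near those of all genes. Of 18 genes of the MCM helicase and replication origins, 12 fell and 1 rose at day 3 (median -0.47), and 17 fell and 0 rose at day 7 (median -1.17). Dbf4, the activator of the origin kinase, was at -1.95 at day 7, with Mcm6 at -1.73 and Mcm4 at -1.56.

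Subunits of the anaphase-promoting complex, the ligase that Cdc20 activates, were mixed: 8 of 14 rose and 6 fell at day 3, and 5 rose and 7 fell at day 7. Cdc27 (-1.55) and Anapc1 (-1.09) fell and Cdc26 (0.55) and Anapc13 (0.76) rose at day 7. Of 9 cyclins and kinases of G1 and S phase, 6 fell and 2 rose at day 7, with Ccnd1, cyclin D1, at -2.67 and Ccnd3, cyclin D3, at 1.42. Of 7 inhibitors of cyclin-dependent kinases, 6 rose and 1 fell at day 3, and 6 rose and 0 fell at day 7. Only 4 of these 7 passed the filter on low counts within day -1 and 6 within day 3, against 7 within day 7. The counts that rose can therefore rest partly on genes that passed the filter through the later tumors. Cdkn1a, the p53 target p21, was at 2.62 at day 3 and 2.33 at day 7. From day 3 to day 7, 5 of these 7 rose and 2 fell (38.8% of all genes rose). Among the 5, Cdkn1b, the inhibitor p27, had fallen at day 3 (-0.52). Of 13 transcription factors of the cell cycle and subunits of the MuvB complex (among them Lin37 and Lin52), 10 fell and 2 rose at day 3. At day 7, 10 fell and 2 rose. The 2 that rose were Lin37 (0.58) and Lin52 (0.27) at day 3, and Lin37 (0.93) and E2f2 (1.43) at day 7. Foxm1 and Mybl2, which activate late cell cycle promoters, were at -2.44 and -2.47 at day 7.

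The comparison of CR with PR at each day asks whether tumors that will respond differ in these genes. Before CY, 42 of 42 genes were lower in CR, by a median log2 fold change of -0.10 (1.07-fold), where 52.7% of all 10777 genes tested were lower and the median of all genes was -0.0068. None of the 42 passed the FDR in edgeR (0.00928% of all genes did), and 27 had an unadjusted p under 0.05 in that direction (8.24% of all genes). DESeq2 called 11 of them lower (1.96% of all genes), limma-voom 16 (4.4% of all genes) and edgeR with title number as a covariate 7 (0.817% of all genes). The genes vary together across tumors, so the 42 directions are not 42 separate observations. Values ran from Knl1 at -0.15 to Aurkb at -0.020.

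The 3 smallest p values before CY belonged to Arhgap11a, Cep55 and Kif4. Arhgap11a, the GTPase-activating protein, ranged from 151 to 173 CPM (median 162) in the 13 CR tumors and from 163 to 200.3 CPM (median 173) in the 13 PR tumors, a log2 fold change of -0.14 (SE 0.032, adjusted p = 0.120, edgeR). Cep55, the midbody protein, ranged from 84.6 to 106 CPM (median 99.1) in the 13 CR tumors and from 98.8 to 122 CPM (median 107) in the 13 PR tumors, a log2 fold change of -0.15 (SE 0.033, adjusted p = 0.120, edgeR). Kif4, the chromosome-bound kinesin, ranged from 89.7 to 112 CPM (median 102) in the 13 CR tumors and from 99.8 to 121 CPM (median 111) in the 13 PR tumors, a log2 fold change of -0.13 (SE 0.033, adjusted p = 0.133, edgeR). In each of these genes the CR and PR ranges overlapped. Summed skeletal muscle markers ran from 140.2 to 906 CPM in CR (median 384) and from 103 to 576 CPM in PR (median 265), and T cell markers from 54.1 to 188 CPM in CR (median 104) and from 35.3 to 139 CPM in PR (median 68.6). With skin and muscle scores as covariates the median of the 42 genes was -0.063, 41 were lower in CR and 14 had an unadjusted p under 0.05. Mesothelial markers, again nearly all Msln, ran from 288 to 426 CPM in CR (median 360) and from 302 to 611 CPM in PR (median 429), lower in CR as the 42 genes were. Neutrophil markers ran from 22.97 to 85.7 CPM in CR (median 49.9) and from 15.8 to 61.0 CPM in PR (median 31.8), and macrophage markers from 2592 to 5048 CPM in CR (median 3156) and from 2147 to 3630 CPM in PR (median 3060). The fold changes of all 8 T cell and all 7 macrophage markers were above 0 in CR, and 0 of either list passed the FDR. Skin and muscle scores were fitted together only, so the part of muscle by itself was not tested, nor was that of the other markers.

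**Figure D5:**
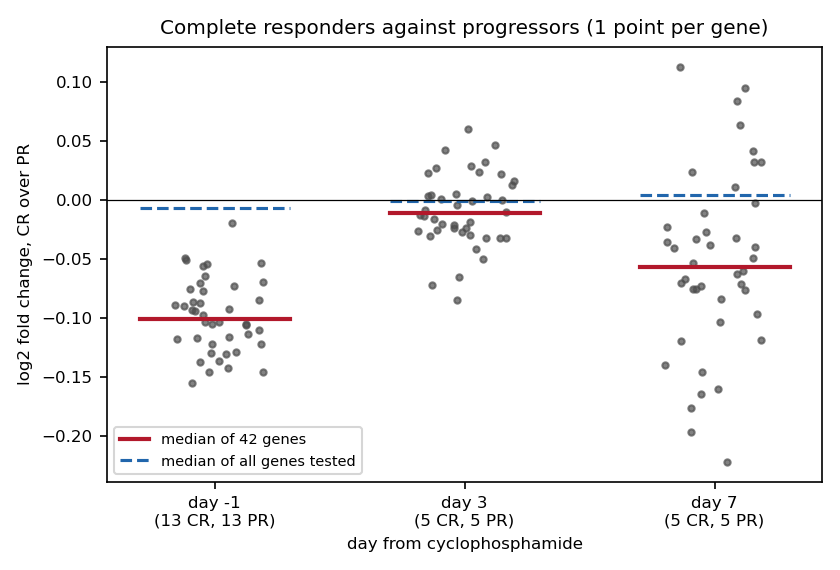
Log2 fold change of CR over PR (y axis) for each of 42 genes at day -1, day 3 and day 7 (x axis); red lines give the median of the 42 and dashed blue lines that of all genes tested. All 42 points of day -1 are below 0, with a median of -0.10, while the points of day 3 and day 7 lie on both sides of 0.

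After CY the responses could not be separated with the number of tumors available. At day 3 edgeR called 0 of 42 genes between CR and PR (0% of 11839 genes), with 0 at an unadjusted p under 0.05 (2.16% of all genes), and DESeq2 and limma-voom called 0 each. The median was -0.011, and the 95% intervals of the 42 genes reached from -0.26 to 0.27. Dlgap5 (0.061), Cdk1 (-0.065) and Ncapg2 (-0.085) had the smallest p at day 3, Dlgap5 among genes higher in CR and the others among genes lower in CR. At day 7 edgeR called 0 of 42 (0% of 11727 genes), with 0 at an unadjusted p under 0.05 (2.84% of all genes), and the other tools called 0. The median at day 7 was -0.057, with intervals from -0.65 to 0.39. Leaving out a single tumor moved the medians across 0, from -0.052 to 0.027 at day 3 and from -0.14 to 0.033 at day 7. At day 7 it was 0.033 without CR replicate 4, 0.017 without PR replicate 3 and 0.0057 without PR replicate 1, and lowest without CR replicate 2. At day 3 it was highest without CR replicate 1 and lowest without PR replicate 2, and no direction is drawn from either median. Hmmr (0.095) and Espl1 (-0.22) had the smallest p in each direction at day 7. The interval of the same gene held its value of day -1 for 42 of 42 genes at day 3 and 41 of 42 at day 7.

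The change of the CR to PR difference with time was tested in the model of all 46 tumors. At day 3 against day -1, 0 of 42 genes passed the FDR (0% of all genes) and 0 had an unadjusted p under 0.05 (3.49% of all genes). At day 7 against day -1, 0 passed (0.00758% of all genes) and 4 had an unadjusted p under 0.05 (11.5% of all genes): Anln (0.25), Arhgap11a (0.20), Diaph3 (0.18) and Hmmr (0.18). The count was 0 without tumors above 10 CPM of Krt5 and 1 with skin and muscle scores as covariates. Leaving out a single tumor gave counts from 0 to 6, with 0 without PR replicate 4, 1 without PR replicate 5, 2 without CR replicate 2, CR replicate 3 or PR replicate 2 and 6 without PR replicate 1 of day 7, and 2 without PR replicate 2 of day -1.

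Tumors of the same group differed little before CY and more at day 7. The mean log2 CPM of the 42 genes had an SD of 0.081 over CR and 0.077 over PR tumors at day -1, of 0.092 and 0.15 at day 3 and of 0.25 and 0.23 at day 7. At day -1 it was lowest in CR replicate 4 (6.94), which was above its group median for 1 of the 42 genes, and highest in PR replicate 13 (7.41), above its group median for 40. At day 3 the lowest were PR replicate 2 (6.63), CR replicate 1 (6.65) and PR replicate 1 (6.67), each above its group median for 0 of the 42 genes. Day 7 ran from CR replicate 4 (4.93) to PR replicate 3 (5.65). CR replicate 4 of day 7 also had the lowest T cell markers of its day (137 CPM) and the highest fibroblast markers (31659 CPM, where the other 9 tumors ran from 10378 to 16454 CPM). Without this tumor all 42 genes were still called lower at day 7.

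The 42 genes varied together, and no other set of genes was measured in this way. The median Pearson correlation over 861 gene pairs was 0.58 in CR and 0.55 in PR tumors of day -1 (13 tumors each), 0.74 and 0.90 at day 3 and 0.90 and 0.91 at day 7 (5 tumors each), as a description in which all points of a tumor share a library. At day -1 Cdc20 varied most in both CR (SD 0.18 on the log2 scale) and PR (0.18), Arhgap11a least in CR (0.056) and Melk least in PR (0.054). At day 7 the gene of largest SD was Kif15 in CR (0.43) and Kif18b in PR (0.35).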

How the data were processed

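Reads of 46 tumors were quantified by the authors with kallisto on GRCm38.p6, by the submitters' processing notes, and the deposited values are raw counts per gene symbol. The version, and how transcripts were summed to genes, are not given in the sources used here. The table ends alphabetically at Pax7, whose incomplete entry was dropped, so later symbols such as Plk1 and Top2a were not analysed here. All value columns were mapped (0 unmapped). Genes with near-identical copies may share reads, which was not tested. Each mouse gave 1 tumor.

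In R 4.3.3, edgeR 4.0.16 was run on counts (TMM, filterByExpr by group, glmQLFit in its older form, glmQLFTest, FDR under 0.1 over all genes tested). CR and PR were contrasted by day. Contrasts of days, weighting CR and PR equally, and of the CR to PR difference used 1 model of 6 groups. The standard error is the fold change divided by the square root of F, so intervals (95%) are approximate. The scripts were tested on simulated data.

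The members and lists were chosen with earlier results of these data known. Named are all 42 genes, with values in every tumor for 1 or 2 genes per role and up to 3 of smallest p per comparison and direction, and up to 3 genes by p per other list and direction (a few items are left out here). Alternatives were DESeq2 1.42.0 or its size factors, limma-voom (limma 3.58.1) with quality weights, library size alone, no filter, a minimum of 1 CPM, revised quasi-likelihood, an FDR of 0.05, skin and muscle covariates, no tumors above 10 CPM of Krt5, leaving out each tumor, all tumors in 1 model, title number as covariate or block, and CR or PR alone. Offsets in 20 bins of transcript length were added after the data were seen.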

Additional observations from a re-analysis of the deposited data

Results flagged for a closer look

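In groups of 5 tumors, 4 of 168 sets of values (2.38%) had a single tumor set apart from the others by a gap that exceeds Dixon's 95% critical value for 5 samples, where chance gives about 1 in 20. CR replicate 1 of day 3 was the lowest of its group for Anln (184.4 CPM), Arhgap11a (104.2 CPM) and Ckap2l (69.67 CPM). It was above its group median for 0 of the 42 genes, and its summed skeletal muscle markers (117 CPM) were the lowest of the 10 tumors of day 3. PR replicate 1 of day 7 was the highest of its group for Anln (45.76 CPM), and above its group median for all 42 genes.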

How the results depend on the processing

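All 42 genes were called lower at day 7 against day -1 and against day 3 under every alternative run, including each tumor left out. At day 3, 4 of the 7 genes that rose (Ccnb2, Cdc20, Cdk1 and Kif2c) and 23 of the 29 that fell kept their call under all 13 alternatives, and 7 and 28 under all 36 fits without a tumor. With library sizes alone 11 rose and 25 fell, with the median of all genes at 0.095 in place of -0.024 (-0.17 at day 7), and Ccnb1 (0.067), Kif22 (0.033) and Nuf2 (0.0017) changed sign. Without tumors above 10 CPM of Krt5 11 rose and 26 fell, and Ccnb1 was at 0.041. In CR alone Ccnb1 was at 0.022, and in PR alone Kif20a at -0.011. With offsets by transcript length, Aurka (-0.023), Mad2l1 (0.019) and Ncapd2 (0.032) changed sign. The cause was not tested.

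Between CR and PR before CY, edgeR called 0 genes, DESeq2 11, limma-voom 16 and edgeR with title number above 14 as a covariate 7, all lower in CR. Without a tumor the count ran from 0 to 11. It was 10 without CR replicate 3, 2 without PR replicate 6 and 11 without PR replicate 7. It was 9 without PR replicate 9 and 8 without PR replicate 12. The shares of all genes called in these fits are not given here, so nothing particular to the 42 genes is drawn from these counts. In edgeR, 10 genes had an unadjusted p under 0.05 with all 46 tumors in 1 model, against 27 with the tumors of day -1 alone. At day 7 the median was -0.057 with edgeR and 0.043 with limma-voom, and at day 3 it was -0.087 with the covariates, with 42 genes lower in CR. With title number as a replicate block 42 genes were called lower at day 7 against day 3 (median -1.35). Tumors of days 3 and 7 that share a number came from different mice and their deviations correlated between -0.081 and 0.11, so the numbers do not pair them.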
